A study of Mus musculus with 6 samples.

Results

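Transcripts of the unfolded protein response and the integrated stress response were followed in tibialis anterior, a mixed limb muscle, through 10 genes: Atf4, Ddit3, Xbp1, Trib3, Asns, Calr, Canx, Pdia4, Pdia6 and Herpud1. They were taken as the probe sets whose only symbol in the platform annotation is one of these genes, which gave 11 of the 35557 probe sets of the table, and 10 of the 19938 genes with a probe set of their own. Pdia4 has 2 probe sets and is represented by the brighter one. The tissue came from 3 samples labelled MLC-SOCS-3 on a C57Bl6J background and 3 control C57Bl6J samples, with 1 Affymetrix array each. All mice were 11 weeks old and had been starved for 6 h, so the fasted state is common to both groups. The labels name the transgene only as MLC-SOCS-3, without its promoter, founder line or the cells that express it, and do not say whether replicates are separate animals. The p-values thus rest on variation among these 6 samples, part or all of which may be technical.

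Proteins that enter the secretory pathway fold in the endoplasmic reticulum, and an excess of unfolded protein there is sensed by IRE1, PERK and ATF6. IRE1 splices the mRNA of Xbp1 into its active form, ATF6 is released as a transcription factor, and PERK phosphorylates the initiation factor eIF2. Other eIF2 kinases respond to lack of amino acids, lack of haem and double-stranded RNA, and the common outcome, the integrated stress response, lowers general translation while favouring that of ATF4. ATF4 then induces genes such as Ddit3, Trib3 and Asns, while ATF6 and spliced XBP1 induce chaperones and folding enzymes. In muscle the same compartment is continuous with the sarcoplasmic reticulum, the calcium store of contraction. The arrays measure transcript levels, so neither Xbp1 splicing nor translation of Atf4 is read by them.

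The promoters of these genes were searched for the letters of known elements of the response. In the 250 bases before the RefSeq gene start (GRCm38.p6), both strands were searched for the ER stress element, CCAAT and CCACG with 9 unfixed bases between them, which binds ATF6 together with NF-Y. They were also searched for the ER stress element II, ATTGG and CCACG with 1 unfixed base between them, and for the core of the elements bound by ATF4 and C/EBP factors, TGATGNAA. The first was found in 0.113% of the 32851 promoters of the table, the second in 0.0304% and the third in 3.45%. All 10 genes had a promoter there, and 5 had a match. These 5 are shown 5′ to 3′ on the strand of the gene, because they hold letters that match an element of the response, with the matches in capitals.
Calr: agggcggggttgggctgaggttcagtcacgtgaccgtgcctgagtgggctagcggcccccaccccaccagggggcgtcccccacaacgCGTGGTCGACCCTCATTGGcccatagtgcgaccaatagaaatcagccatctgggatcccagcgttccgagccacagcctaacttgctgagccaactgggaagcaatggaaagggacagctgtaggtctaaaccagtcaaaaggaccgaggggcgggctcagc
Canx: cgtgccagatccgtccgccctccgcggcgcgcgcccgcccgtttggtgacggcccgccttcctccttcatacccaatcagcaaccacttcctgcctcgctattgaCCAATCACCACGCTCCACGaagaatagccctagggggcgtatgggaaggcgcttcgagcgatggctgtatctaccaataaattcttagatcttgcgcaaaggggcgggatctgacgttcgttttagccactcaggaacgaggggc
Pdia6: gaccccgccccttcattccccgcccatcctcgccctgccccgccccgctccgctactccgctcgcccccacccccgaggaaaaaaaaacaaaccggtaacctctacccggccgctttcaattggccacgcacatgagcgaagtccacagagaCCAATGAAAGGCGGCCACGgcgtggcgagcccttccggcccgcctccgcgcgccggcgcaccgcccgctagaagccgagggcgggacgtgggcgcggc
Herpud1: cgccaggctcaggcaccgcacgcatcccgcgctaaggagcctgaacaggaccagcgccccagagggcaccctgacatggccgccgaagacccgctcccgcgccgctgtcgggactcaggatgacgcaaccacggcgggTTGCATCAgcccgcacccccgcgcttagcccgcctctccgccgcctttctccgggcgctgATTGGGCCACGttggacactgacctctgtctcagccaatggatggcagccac
Asns: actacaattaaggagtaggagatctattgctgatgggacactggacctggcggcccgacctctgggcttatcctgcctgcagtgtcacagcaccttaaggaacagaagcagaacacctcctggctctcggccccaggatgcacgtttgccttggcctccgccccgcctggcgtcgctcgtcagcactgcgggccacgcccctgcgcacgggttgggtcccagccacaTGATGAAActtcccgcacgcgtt
The Calr promoter is at chr8:84846932-84847181 on the minus strand, with the ER stress element on the opposite strand from the gene, 162 to 144 bases before the start. That of Canx, at chr11:50325674-50325923 on the minus strand, has it 145 to 127 bases before the start. In Pdia6, at chr12:17266339-17266588 on the plus strand, it lies 98 to 80 bases before the start. Herpud1, at chr8:94386179-94386428 on the plus strand, has the ER stress element II 52 to 42 bases before the start and the ATF4-type core on the opposite strand at 112 to 105. In Asns, at chr6:7693210-7693459 on the minus strand, the ATF4-type core lies 23 to 16 bases before the start. The windows of Atf4, Ddit3, Xbp1, Trib3 and Pdia4 held none of these letters, which says nothing of elements elsewhere. The elements do not overlap one another in the promoters shown. A match is a description of the sequence and not a bound site.

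Socs3, the gene of the transgene, was checked first. Its brighter probe set read 7.07, 7.12 and 7.25 on the arrays labelled MLC-SOCS-3, against 7.37, 7.41 and 7.43 on the control arrays, in log2 intensity. The dimmer Socs3 probe set read 6.15, 6.15 and 6.12 on the labelled arrays, against 6.46, 6.40 and 6.23 on the controls. Both were thus lower, not higher, on every array where the label would place the transgene. Neither passed (limma, adjusted p = 0.80 for the brighter and 0.82 for the dimmer). Their unadjusted p in limma were 0.0114 and 0.0296, where 5.92% of all probe sets had one under 0.05. The sources used here do not say whether the probes of these Socs3 probe sets lie in the transgene. Every direction below is therefore that of the arrays as labelled. Markers of muscle fibres were bright in both groups. The mean of Ckm, Acta1, Myh4, Tnnt3 and Pvalb was 14.29 to 14.34 on the arrays labelled MLC-SOCS-3 and 14.30 to 14.32 on the control arrays.

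None of the 10 stress response genes passed limma's test between the groups (adjusted p between 0.83 and 0.999 over all 35557 probe sets), where 0% of all probe sets passed. None had an unadjusted p under 0.05 either, compared with 4.86% of all genes and 5.92% of all probe sets. Differences, labelled MLC-SOCS-3 minus control on the log2 scale, ran from -0.21 for Ddit3 to 0.22 for Pdia4, with 5 positive and 5 negative and a median of 0.00083. Over all genes the median was -0.016. The 95% intervals of the 10 genes reached at most a 1.42-fold lower and a 1.47-fold higher intensity on the arrays labelled MLC-SOCS-3. All 10 genes lay above the median probe set at 5.99, though Asns and Trib3 lay within 1 log2 unit of it, and the table gives no measure of background. Intensities from whole muscle cannot tell fewer cells of a type from less RNA per cell.

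**Figure D1:**
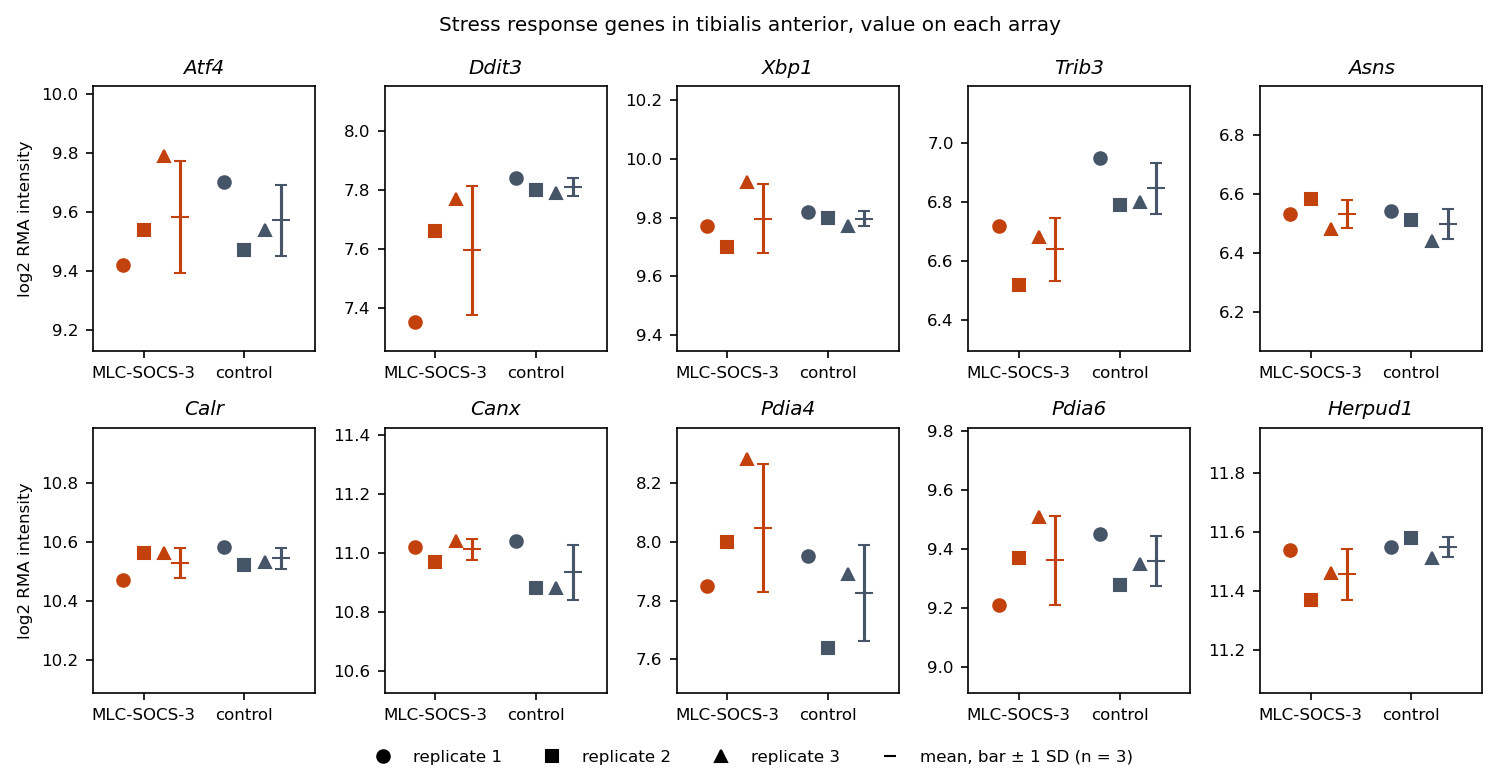
Log2 RMA intensity of the 10 genes on each of the 6 arrays, with MLC-SOCS-3 on the left and control on the right of each panel; every panel spans the same log2 range, shapes mark the replicate, and bars give the mean ± 1 SD (n = 3). The 3 MLC-SOCS-3 points of Ddit3 and of Trib3 all lie under the lowest control point, and the other 8 genes overlap.

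Atf4 encodes the transcription factor at the centre of the integrated stress response. It read 9.42, 9.54 and 9.79 on the arrays labelled MLC-SOCS-3, against 9.70, 9.47 and 9.54 on the control arrays. The labelled arrays held both the lowest and the highest of the 6 values, so the control values lay inside their range. The difference was 0.011 ± 0.12 (SE), with a 95% interval of -0.28 to 0.30 (limma, adjusted p = 0.99).

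Ddit3 encodes CHOP, a transcription factor that ATF4 induces and that promotes cell death in prolonged stress. It read 7.35, 7.66 and 7.77 on the arrays labelled MLC-SOCS-3, against 7.84, 7.80 and 7.79 on the control arrays. All 3 labelled arrays were lower than every control array, but replicate 3 by only 0.016. The labelled arrays were also far more scattered, at 7.59 ± 0.22 (SD, n = 3) against 7.81 ± 0.03 (SD, n = 3) in controls. The difference of -0.21 ± 0.12 (SE), a 1.16-fold lower intensity, did not pass (95% interval -0.50 to 0.074, limma, adjusted p = 0.86). Replicate 1 set its size, and without that array the difference was -0.092 ± 0.08 (SE).

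Trib3, a pseudokinase that restrains Akt and ATF4 and is induced by ATF4 and CHOP, gave the smallest p of the 10 genes. Its values were 6.72, 6.52 and 6.68 on the arrays labelled MLC-SOCS-3, against 6.95, 6.79 and 6.80 on the control arrays. The groups did not overlap, with a gap of 0.071 between the nearest arrays. The difference was -0.21 ± 0.09 (SE), a 1.15-fold lower intensity (95% interval -0.42 to 0.0019), with an unadjusted p of 0.0516 and an adjusted p of 0.83 in limma. Ddit3 and Trib3 were the 2 genes of the 10 that were lower on every array labelled MLC-SOCS-3, and none was higher on every such array. Over all genes, 7.76% were lower and 4.52% higher in this way.

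Asns encodes asparagine synthetase, whose promoter is the textbook target of the amino acid arm of the response. It read 6.53, 6.58 and 6.48 on the arrays labelled MLC-SOCS-3, against 6.54, 6.51 and 6.44 on the control arrays. All 6 arrays lay within 0.14 of one another, one of the narrowest ranges among the 10 genes. The difference was 0.033 ± 0.07 (SE), with a 95% interval of -0.13 to 0.19 (limma, adjusted p = 0.95). Asns thus did not share the lower values of Ddit3 and Trib3, which ATF4 also induces, though a difference between these genes was not tested.

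Xbp1, whose mRNA is the substrate of IRE1, read 9.77, 9.70 and 9.92 on the arrays labelled MLC-SOCS-3, against 9.82, 9.80 and 9.77 on the control arrays. The labelled arrays again lay on both sides of the controls. Their means were 9.80 ± 0.12 and 9.80 ± 0.02 (SD, n = 3 each). The difference was -0.00067 ± 0.08 (SE), with a 95% interval of -0.19 to 0.19 (limma, adjusted p = 0.999).

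**Figure D2:**
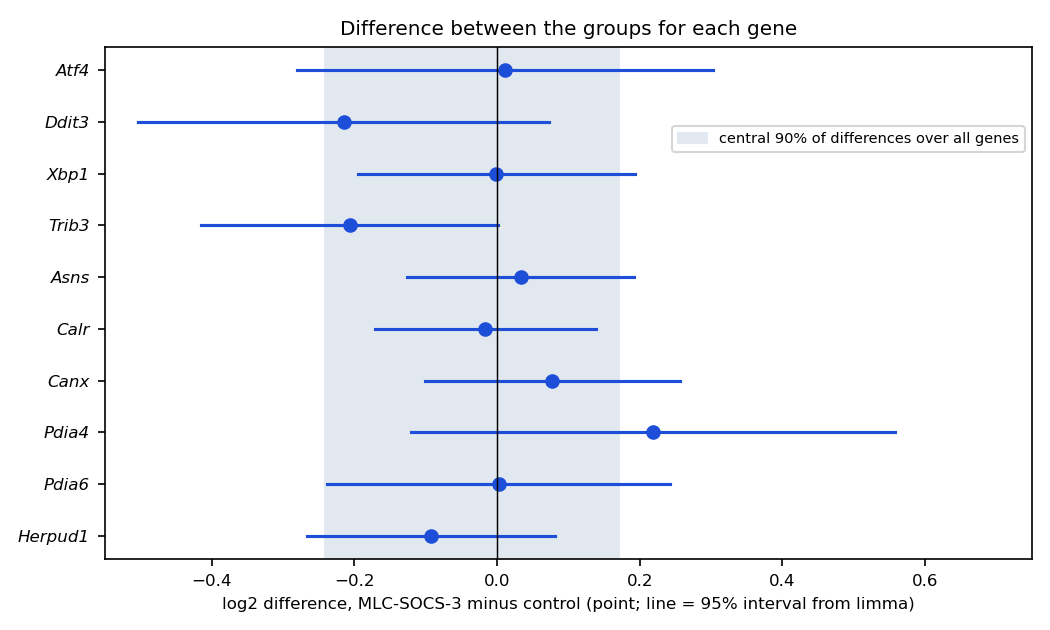
Difference in log2 intensity, MLC-SOCS-3 minus control, for each of the 10 genes (point) with limma's 95% interval (line), over the span between the 5th and the 95th percentile of the differences of all genes (band, -0.24 to 0.17). Each interval includes 0, and only the Pdia4 point lies outside the band, at 0.22.

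Calr and Canx encode calreticulin and calnexin, lectin chaperones that hold newly made glycoproteins until they are folded. Calr read 10.47, 10.56 and 10.56 on the arrays labelled MLC-SOCS-3, against 10.58, 10.52 and 10.53 on the control arrays, the narrowest range of the 10 genes at 0.12. Its difference was -0.016 ± 0.06 (SE), with a 95% interval of -0.17 to 0.14 (limma, adjusted p = 0.98). Canx read 11.02, 10.97 and 11.04 on the arrays labelled MLC-SOCS-3, against 11.04, 10.88 and 10.88 on the control arrays. Control replicate 1 stood level with the highest labelled array, while the other controls were lower than all 3. The Canx difference was 0.078 ± 0.07 (SE), with a 95% interval of -0.10 to 0.26 (limma, adjusted p = 0.89). Both promoters carry the ER stress element shown above.

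Pdia4 and Pdia6 encode protein disulfide isomerases, enzymes that form and rearrange disulfide bonds. Pdia4 read 7.85, 8.0 and 8.28 on the arrays labelled MLC-SOCS-3, against 7.95, 7.64 and 7.89 on the control arrays. Labelled replicate 3 was the highest and control replicate 2 the lowest, and the groups overlapped. The difference of 0.22 ± 0.14 (SE), a 1.16-fold higher intensity, had a 95% interval of -0.12 to 0.56 (limma, adjusted p = 0.86). It was 0.10 without labelled replicate 3 and 0.13 without control replicate 2. The dimmer Pdia4 probe set, below the median probe set, read 5.91, 5.42 and 5.67 on the arrays labelled MLC-SOCS-3, against 5.54, 5.64 and 5.59 on the control arrays. Its difference was 0.076 ± 0.13 (SE), and its highest array was labelled replicate 1, so the probe sets of this gene did not order the arrays alike.

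Pdia6 read 9.21, 9.37 and 9.51 on the arrays labelled MLC-SOCS-3, against 9.45, 9.28 and 9.35 on the control arrays. The labelled arrays held the lowest and the highest value, as for Atf4. The difference was 0.0023 ± 0.10 (SE), with a 95% interval of -0.24 to 0.24 (limma, adjusted p = 0.999).

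Herpud1 encodes a membrane protein of the endoplasmic reticulum that takes part in the degradation of misfolded proteins. It read 11.54, 11.37 and 11.46 on the arrays labelled MLC-SOCS-3, against 11.55, 11.58 and 11.51 on the control arrays. Labelled replicates 2 and 3 were lower than all controls, whereas replicate 1 was higher than control replicate 3. The difference was -0.092 ± 0.07 (SE), with a 95% interval of -0.27 to 0.081 (limma, adjusted p = 0.87). By promoter element, Calr, Canx, Pdia6 and Herpud1, the 4 genes with an ER stress element of either form, lay between -0.092 and 0.078. Atf4, Xbp1 and Asns, with no such element in the window, lay in that range too. Ddit3 at -0.21, Trib3 at -0.21 and Pdia4 at 0.22, also without such an element there, lay outside it. A link between the element and the differences was not tested. The 25th and 75th percentiles of the differences of all genes were -0.095 and 0.053. The chaperone genes Hspa5 and Hsp90b1, whose promoters also hold the ER stress element, were at 0.081 and 0.13. Only 0.143% of all promoters held either form.

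The 10 genes also varied between arrays of the same group. In 8 of the 10 genes the range was wider among the arrays labelled MLC-SOCS-3 than among the controls, a pattern seen in 50.5% of all genes. The highest value fell on labelled replicate 3 (Atf4, Xbp1, Pdia4, Pdia6) or control replicate 1 (Ddit3, Trib3, Calr, Canx) in 8 of the 10, and in 40.7% of all genes. The lowest fell on labelled replicate 1 (Atf4, Ddit3, Calr, Pdia6) or replicate 2 (Xbp1, Trib3, Herpud1) in 7 of the 10, and in 37.3% of all genes. The arrays in these counts of highest and lowest values are those where the 10 genes had most of them. The counts would thus exceed the shares of all genes through that choice alone, and they are a description only. Averaged over the 10 genes, the arrays labelled MLC-SOCS-3 deviated from the gene means by -0.076, -0.037 and 0.085, against 0.079, -0.036 and -0.014 on the control arrays. The same means over all genes were -0.0022, -0.027 and -0.0062 on the labelled arrays and 0.036, 0.0012 and -0.0025 on the controls. The within-group SD had a median of 0.091 over the 10 genes and 0.11 over all genes.

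**Figure D3:**
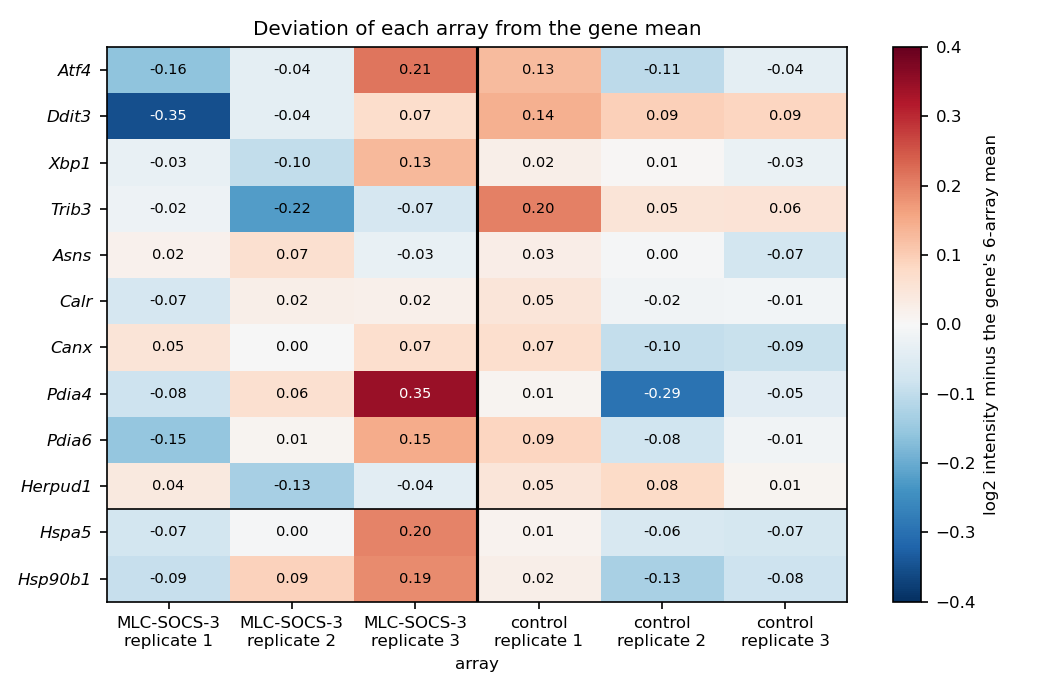
Log2 intensity of each gene on each array minus that gene's mean over the 6 arrays, for the 10 genes and, under the line, the chaperones Hspa5 and Hsp90b1, with MLC-SOCS-3 arrays left of the vertical line. Labelled replicate 3 is high for Pdia4 (0.35), Atf4 (0.21) and Hspa5 (0.20), and labelled replicate 1 is low for Ddit3 (-0.35) and Atf4 (-0.16).

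Immediate-early genes respond to handling of the tissue. They shared their lowest array with some of the 10 genes and not with others. The mean of Fos, Jun, Egr1, Ier2 and Dusp1 was 8.30 to 8.73 on the arrays labelled MLC-SOCS-3 and 8.82 to 9.62 on the control arrays, so the groups did not overlap in this mean. Gene by gene, Ier2 and Dusp1 were lower on all 3 labelled arrays, as were Ddit3 and Trib3, while Fos, Jun and Egr1 overlapped and Jun differed by only 0.012. All 5 were lowest on labelled replicate 1, as were Atf4, Ddit3, Calr and Pdia6. Xbp1, Trib3 and Herpud1 were instead lowest on labelled replicate 2. Of all 19938 genes, 2996 were lowest on labelled replicate 1 and 4433 on labelled replicate 2. On control replicate 2, 4 of the 5 immediate-early genes were highest, as was Herpud1, but this array was the lowest for Pdia4 and Canx. Of all genes, 3093 were highest and 3786 lowest on control replicate 2. Macrophage markers (4 of 4 measured) averaged 6.31 to 6.76 on the arrays labelled MLC-SOCS-3 and 6.19 to 6.34 on the control arrays. Adipocyte markers (2 of 3 measured) averaged 5.91 to 6.05 and tendon markers (3 of 3) 6.79 to 6.91 on the labelled arrays, against 5.53 to 5.56 and 7.02 to 7.09 on the controls. Fibroblast markers (4 of 4) averaged 10.59 to 10.87 on the labelled arrays and 10.59 to 10.69 on the controls, and endothelial markers (3 of 3) 8.70 to 8.83 on the labelled arrays and 8.75 to 8.94 on the controls. Markers of B and plasma cells (3 of 4), cells rich in endoplasmic reticulum, averaged 4.48 to 4.72 on the labelled arrays and 4.59 to 4.69 on the controls, below the median probe set. These intensities have no true 0, and no marker of these lists passed limma's test after adjustment. At an unadjusted p under 0.05 there were 4 of the 29 measured markers, against 4.86% of all genes. On the labelled arrays Adipoq, an adipocyte hormone, was 1.55-fold higher (limma, unadjusted p = 0.000603, adjusted p = 0.69) and Itgam, a myeloid integrin, 1.48-fold higher (unadjusted p = 0.0018, adjusted p = 0.73). Mkx, a tendon transcription factor, differed by -0.35 ± 0.07 (SE) and Dusp1, a phosphatase, by -0.81 ± 0.21. The part of these genes in the stress response values was not tested.

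Of 109 further genes of the same pathways, 102 were measured, and none passed limma's test over all probe sets. At an unadjusted p under 0.05 there was 1 higher, Dnajb9, and 1 lower, Casp12, where 1.36% of all genes were higher and 3.5% lower at that p. The count was 6 without labelled replicate 1, which added Atf3, Chac1, Edem1 and Pdia3 (named here for the count, after their values were seen), and 1 without labelled replicate 2, labelled replicate 3, control replicate 1 or control replicate 3. Their median difference was 0.0084, with 54 positive and 48 negative. On every array labelled MLC-SOCS-3, 5 of the 102 were higher than all controls (Eif2ak4, Dnajb9, Txndc5, Erlec1 and Cebpg) and 3 were lower (Ero1b, Derl3 and Casp12). Of all genes, 4.52% were higher and 7.76% lower in this way. The lists, like the 10 genes, were drawn up with earlier results of these data known.

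The stress sensors, 8 of 9 measured, had a median difference of 0.026, with 4 positive and 4 negative. Ern1, which encodes IRE1, was at 0.17 ± 0.13 (SE), Atf6b, a relative of Atf6, at -0.11 ± 0.08, and Creb3l1, a membrane-bound transcription factor, at 0.17 ± 0.13. The list of eIF2 kinases, eIF2 and its regulators had 10 of 11 genes measured, none of them a subunit of eIF2 itself. Its median was 0.045, with 7 positive. Eif2ak4 encodes GCN2, the kinase that senses uncharged tRNA. It read 6.95, 6.82 and 6.85 on the arrays labelled MLC-SOCS-3, against 6.68, 6.77 and 6.67 on the control arrays. The groups did not overlap, and the difference of 0.17 ± 0.07 (SE) did not pass (limma, adjusted p = 0.83). Eif2ak1, the haem-regulated kinase, was at 0.12 ± 0.07 and Eif2b1, a subunit of the eIF2 exchange factor, at 0.056 ± 0.06.

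Chaperones and folding enzymes, 21 of 21 measured, had a median of 0.0037, with 11 positive and 10 negative. Hspa5 encodes BiP, the main chaperone of the compartment and a standard marker of its stress, and its promoter also holds the ER stress element. It read 11.13, 11.20 and 11.41 on the arrays labelled MLC-SOCS-3, against 11.22, 11.14 and 11.14 on the control arrays. Labelled replicate 3 was the highest, as for Atf4 and Pdia6, and the difference of 0.081 ± 0.09 (SE) did not pass (limma, adjusted p = 0.91). Hsp90b1, the HSP90 of this compartment, read 10.82, 11.01 and 11.10 on the arrays labelled MLC-SOCS-3, against 10.94, 10.78 and 10.83 on the control arrays, a difference of 0.13 ± 0.09 (SE). Dnajb9, a co-chaperone of BiP that is induced through XBP1, read 10.07, 10.13 and 10.29 on the arrays labelled MLC-SOCS-3, against 9.89, 10.02 and 9.85 on the control arrays. All 3 labelled arrays were higher than every control. The difference was 0.25 ± 0.09 (SE), a 1.19-fold higher intensity, with an unadjusted p of 0.0307 and an adjusted p of 0.82 in limma. Ero1b, an oxidase that works with disulfide isomerases, was at -0.17 ± 0.08, and Txndc5, another disulfide isomerase, at 0.096 ± 0.07.

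In degradation and translocation, 19 of 20 genes were measured, with a median of -0.0051, 8 positive and 11 negative. Erlec1, a lectin that recognises misfolded glycoproteins, was at 0.12 ± 0.06 (SE), with its 3 labelled arrays at 9.0 to 9.05 and its controls at 8.89 to 8.92. Sec61b, a subunit of the translocation channel, was at -0.14 ± 0.08, and Edem2, which trims mannose from misfolded glycoproteins, at 0.15 ± 0.09. The cytosolic aminoacyl-tRNA synthetases, many of them ATF4 targets, had 11 of 12 measured and differed little, from -0.054 (Wars) to 0.080 (Tars), with a median of 0.0098 and Gars at -0.048.

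ATF4 targets other than Ddit3, Trib3 and Asns had 24 of 26 measured, with a median of 0.033, 16 positive and 8 negative. Chac1 encodes an enzyme that degrades glutathione and is induced by ATF4 and CHOP. It read 10.27, 9.54 and 9.49 on the arrays labelled MLC-SOCS-3, against 10.14, 10.56 and 10.17 on the control arrays. Labelled replicates 2 and 3 were lower than all controls, while replicate 1 lay among them. The difference was -0.52 ± 0.24 (SE) (limma, adjusted p = 0.83). Without replicate 1 it was -0.77 ± 0.15, still short of the test (adjusted p = 0.68). Cebpg, a partner of ATF4, was at 0.13 ± 0.07 and Slc6a9, a glycine transporter, at 0.14 ± 0.09. Atf3, a stress-induced transcription factor that the naming rule did not pick, was singled out after its values were seen. It read 7.92, 9.29 and 9.96 on the arrays labelled MLC-SOCS-3, against 8.72, 8.59 and 7.87 on the control arrays, a difference of 0.66 ± 0.54 (SE) with overlapping groups. Without replicate 1 it was 1.23 ± 0.33, which did not pass either (limma, adjusted p = 0.72). Replicate 1 was thus apart from the other labelled arrays for Ddit3, Chac1 and Atf3, low for the first and the third and high for Chac1.

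Of the cell death genes linked to this stress, 9 of 10 were measured, with a median of -0.048, 1 positive and 8 negative. Casp12, a caspase of the endoplasmic reticulum in rodents, read 6.57, 6.86 and 6.78 on the arrays labelled MLC-SOCS-3, against 7.85, 7.94 and 7.85 on the control arrays. The groups were far apart, with a difference of -1.14 ± 0.09 (SE), and an unadjusted p of 1.54e-05, the smallest of all 19938 genes, while limma's adjusted p was 0.55. That adjusted p depended on the setting, at 0.0566 on listed probe sets alone, 0.0942 with trended and robust moderation, 0.0984 on brighter probe sets and 0.862 with the replicate block, and did not pass in any. With 1 array left out it was 0.366 to 0.929. Tnfrsf10b, a death receptor that CHOP induces, was at -0.21 ± 0.11, and Bak1, a pore-forming death factor, at -0.12 ± 0.09.

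**Figure D4:**
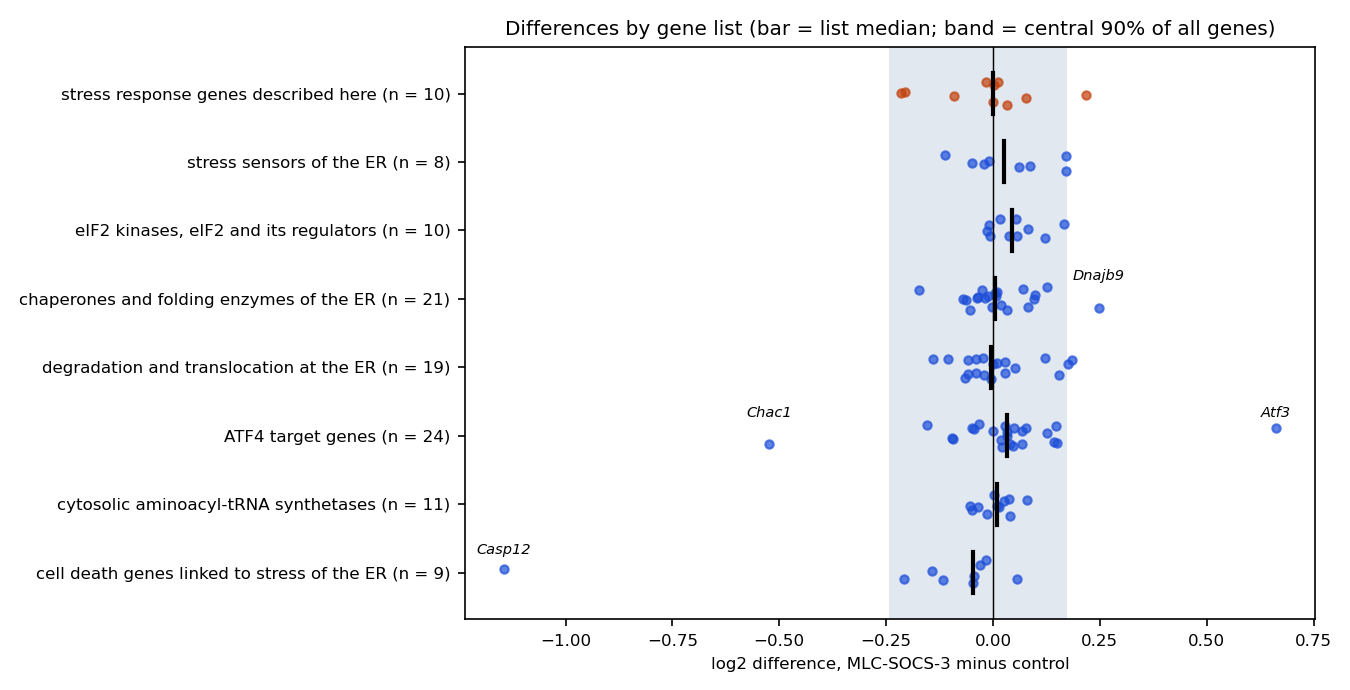
Log2 differences, MLC-SOCS-3 minus control, of the 10 genes (top row) and of the measured genes of 7 lists of the same pathways, 1 point per gene, with the median of each list as a bar and the span from the 5th to the 95th percentile of all genes as a band. Casp12 at -1.14, Chac1 at -0.52 and Atf3 at 0.66 lie well outside the band, and the list medians lie between -0.048 and 0.045.

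Pdia4 varied most over the 6 arrays among the 10 genes (SD 0.21). The genes closest to its profile were sought among 4934 genes with an SD of at least 80% of that of Pdia4, by the root mean square distance between profiles centred on their own means. The closest was Slc16a1, a lactate and monocarboxylate transporter, at a distance of 0.022. It read 10.30, 10.42 and 10.70 on the arrays labelled MLC-SOCS-3, against 10.42, 10.12 and 10.33 on the control arrays. Next came the olfactory receptor gene Olfr654 (0.046) and Slamf7 (0.052), both below the median probe set. The likeness describes 6 arrays and was picked as the closest of many genes.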

How the data were processed

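Per the submitters' processing notes, the authors made the deposited values, 1 log2 intensity per probe set and array, with RMA in Affymetrix Expression Console. Versions and genome build: not given in the sources used here. This method removes background, equalises the distributions of the arrays and summarises the probes of a set, which compresses the folds of dim genes. The values ran from 1.41 to 15.1, with array medians of 5.98 to 6.04, and were used as deposited. There are no counts or detection calls, so the number of arrays limits the precision. No array was a copy of another.

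Of the 35557 probe sets, 21789 have 1 symbol in the platform annotation, which can be old. Symbols were updated through Entrez identifiers (21698 matched to the GRCm38.p6 table). A gene is represented by its probe set with the highest mean. Promoters are from RefSeq (GRCm38.p6), matched by symbol.

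The arrays were compared with limma 3.58.1 (R 4.3.3), with a moderated two-sided test at default settings and Benjamini-Hochberg adjustment over all probe sets and a threshold of 0.05. Scripts were tested on simulated data. The genes named are the 10 genes, Socs3, Hspa5, Hsp90b1, up to 3 genes per list with the smallest p, the 3 genes closest to the most variable of the 10, and the markers listed by cell type. Atf3, Edem1, Pdia3 and Derl3 fall outside this rule, and their values had been seen when they were chosen. The genes and lists were chosen with earlier results of these data known. Alternatives were array centring, quantile normalization, trended and robust moderation, listed or brighter probe sets alone, a replicate block, the other Pdia4 probe set, and leaving out each array.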

Additional observations from a re-analysis of the deposited data

How the results depend on the processing

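In none of the alternatives tried did any of the 10 genes pass the adjusted threshold, and the smallest adjusted p was 0.74. Of 121 alternative differences 104 kept their direction and 17 turned, all for genes near 0. With quantile normalization Atf4 was at -0.0065 and Pdia6 at -0.0099, and with each array centred on its median Xbp1 was at 0.019 and Calr at 0.0031. Leaving out each array in turn gave -0.093 to 0.093 for Atf4, -0.065 to 0.049 for Xbp1, -0.032 to 0.014 for Calr and -0.071 to 0.080 for Pdia6. The other 6 genes kept their direction in every alternative, but not their size: without 1 array Ddit3 was at -0.30 to -0.092, Pdia4 at 0.10 to 0.31, Trib3 at -0.25 to -0.15, Asns at 0.0054 (without control replicate 3) to 0.057 (without MLC-SOCS-3 replicate 3), Canx at 0.049 (without control replicate 2) to 0.13 (without control replicate 1) and Herpud1 at -0.13 (without MLC-SOCS-3 replicate 1) to -0.048 (without MLC-SOCS-3 replicate 2). At an unadjusted p under 0.05 there was 1 of the 10 genes, Trib3, on listed probe sets alone and on those brighter than the median, against 0 as reported. Leaving out each array gave 0 to 1 of these (Trib3 without MLC-SOCS-3 replicate 1, Ddit3 without MLC-SOCS-3 replicate 3). Of the 102 pathway genes, 2 had such a p, 4 on listed probe sets alone, 4 on the brighter ones, and 1 to 6 without 1 array. Over all probe sets 0 passed the adjusted threshold, and 0 to 1 did without 1 array. That 1, an unnamed probe set, came without control replicate 2. The cause was not tested. The count of genes below every control on each MLC-SOCS-3 array stayed at 2 under array centring and quantile normalization, which were added after seeing the data for this count.

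The labels give both groups replicates 1 to 3, but same-numbered arrays did not deviate together (correlations of deviations from the group means of -0.026, -0.018 and -0.043), so the numbers were not taken as pairs. With the replicate block 0 of the 10 genes had an unadjusted p under 0.05, 1 of the pathway genes did, and 0 probe sets passed the adjusted threshold.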
